A study of Mus musculus with 6 samples.

Results

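Purinergic receptors and the enzymes that make adenosine were followed in chronic stroke infarcts and contralateral cortices of mice. The 10 genes examined encode the ATP-gated channels P2X4 (*P2rx4*) and P2X7 (*P2rx7*), the nucleotide receptors P2Y6 (*P2ry6*) and P2Y14 (*P2ry14*), the surface enzymes CD39 (*Entpd1*) and CD73 (*Nt5e*), and the 4 adenosine receptors (*Adora1*, *Adora2a*, *Adora2b*, and *Adora3*). The 10 genes were taken by symbol from 46078 Ensembl identifiers in the count tables, and all 10 were among the 15554 genes that passed the filter on low counts. RNA-Seq libraries came from 3 infarcts and 3 contralateral cortices of male wild-type C57BL/6J mice, 3 months old according to the sample records, at 7 weeks after a distal hypoxic (DH) stroke, in which the middle cerebral artery is closed and the mouse is then kept in low oxygen. Contralateral cortices are the opposite hemisphere of mice that had the same surgery and hypoxia, so no uninjured brain enters the comparison. The records name no drug for these mice and do not state which infarct and which contralateral cortex share a mouse, or whether all samples came from separate mice, so *p* values describe the spread between these samples. Infarcts were dissected by eye after perfusion with saline.

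ATP and UDP that leave stressed or dying cells act on P2X channels, which open to cations, and on P2Y receptors, which couple to G proteins. CD39 removes phosphates from extracellular ATP and ADP to leave AMP, and CD73 turns AMP into adenosine. Adenosine then acts on its own receptors, of which those encoded by *Adora1* and *Adora3* lower cAMP and those encoded by *Adora2a* and *Adora2b* raise it. In brain, P2X4, P2X7, P2Y6, and CD39 are known from microglia and macrophages, and the *Adora1* receptor is known for holding back transmitter release at synapses.

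In infarcts, 7 of the 10 genes were expressed more highly, 1 was expressed at a lower level (*Adora1*), and 2 (*Adora2b* and *Adora3*) did not pass the test. Genes were called by edgeR at a Benjamini-Hochberg adjusted *p* below 0.05 with a change of more than 2-fold. The 7 higher genes rose between 5.06-fold (*Adora2a*) and 27.0-fold (*P2ry6*). The background is wide in this comparison. Of all 15554 genes tested, 25.7% were called higher, 20.9% lower, and 46.6% in either direction, and 65.0% passed the adjusted *p* alone. The 3 infarct libraries did not overlap the 3 contralateral libraries for 8 of the 10 genes, and this was so for 72.3% of all genes tested. The median log2 fold change was 2.55 over the 10 genes and 0.030 over all genes tested. Values below are library-scaled read counts (CPM, with TMM scaling), given for libraries 1, 2, and 3 of each region, and fold changes are those of edgeR. In bulk tissue, fewer cells of a type and less RNA per cell cannot be told apart, and this holds for every difference given here.

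**Figure D1:**
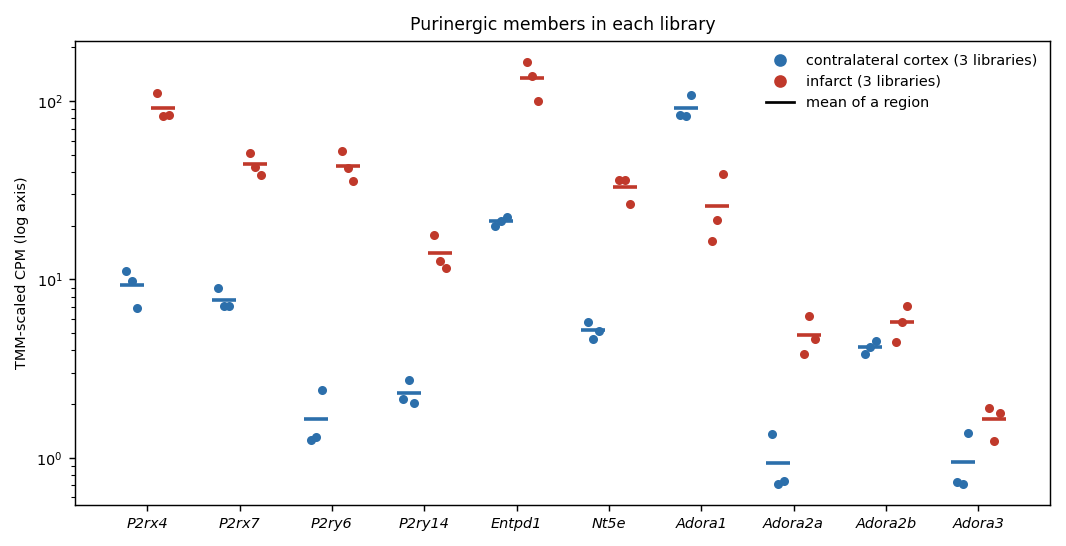
TMM-scaled CPM (log axis) of the 10 genes in each library, with 1 point per library (3 infarcts, 3 contralateral cortices) and a line at the mean of each region. Infarct points lie above all contralateral points for 7 genes and below them for *Adora1*, whereas the regions overlap for *Adora2b* and *Adora3*.

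*P2rx4*, which encodes a channel opened by ATP that is held largely in lysosomes of microglia and macrophages, was measured at 111, 81.9, and 83.0 CPM in infarcts and at 11.2, 9.83, and 6.92 CPM in contralateral cortices. Every infarct library was far above the highest contralateral library. The gene rose by 3.29 on the log2 scale (SE 0.22, 95% interval 2.79 to 3.79, edgeR adjusted *p* = 1.44e-06), a fold change of 9.79. *P2rx7*, the channel whose opening by high ATP leads to release of interleukin-1β from myeloid cells, had 51.1, 42.7, and 38.7 CPM in infarcts and 8.93, 7.10, and 7.11 CPM in contralateral cortices. The regions did not overlap, and the log2 fold change was 2.51 (SE 0.19, 95% interval 2.09 to 2.93, edgeR adjusted *p* = 2.88e-06).

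The 2 channel genes lie next to each other on the plus strand of chromosome 5 (GRCm38), *P2rx7* (ENSMUSG00000029468) at 122643911 to 122691432 and *P2rx4* (ENSMUSG00000029470) at 122707544 to 122729738, with 16111 bases between them. Their levels per kilobase of exon stood at a ratio of *P2rx4* to *P2rx7* of 1.84, 1.63, and 1.82 in infarcts and 1.06, 1.18, and 0.828 in contralateral cortices. The ratios of the 2 regions did not overlap (exact permutation test, two-sided, *p* = 0.1, the smallest that 3 against 3 libraries allow, and 0.133 after adjustment over the 4 ratios tested).

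*P2ry6*, the receptor for UDP that is known for triggering phagocytosis by microglia, had the largest fold change among the 10 genes. It was measured at 52.2, 42.1, and 35.4 CPM in infarcts and at only 1.25, 1.30, and 2.40 CPM (24, 20, and 26 counts) in contralateral cortices. No library came between these ranges. The log2 fold change was 4.75 (SE 0.29, 95% interval 4.11 to 5.40, edgeR adjusted *p* = 7.95e-07), and it exceeded that of 95.8% of all genes tested. *P2ry6* (ENSMUSG00000048779) lies on the minus strand of chromosome 7 at 100937630 to 100974649.

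*P2ry14*, a receptor for UDP-glucose and other UDP-sugars, was lower in abundance. Its 17.7, 12.6, and 11.6 CPM in infarcts stood above 2.14, 2.73, and 2.03 CPM in contralateral cortices without overlap. It rose by 2.59 on the log2 scale (SE 0.26, 95% interval 2.02 to 3.16, edgeR adjusted *p* = 1.66e-05). *P2ry14* (ENSMUSG00000036381; chromosome 3, 59113855 to 59153618, minus strand) lies within introns of *Med12l*, which runs on the other strand, and the strand setting of the counting is not given in the sources used here. The exons of the 2 genes do not overlap.

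*Entpd1*, which encodes CD39, was the most abundant of the 10 genes in infarcts, at 166, 138, and 99.4 CPM, against 20.0, 21.2, and 22.2 CPM in contralateral cortices. The infarct libraries were spread over a wider range than the contralateral libraries (134 ± 33.3 and 21.1 ± 1.14 CPM, mean ± SD, *n* = 3 each), with infarct 3 lowest. *Entpd1* (ENSMUSG00000048120; chromosome 19, 40612366 to 40741602, plus strand) rose by 2.67 on the log2 scale (SE 0.20, 95% interval 2.22 to 3.12, edgeR adjusted *p* = 2.85e-06).

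*Nt5e*, which encodes CD73, followed at 36.2, 36.1, and 26.6 CPM in infarcts, and contralateral cortices held 5.80, 4.62, and 5.17 CPM. Its rise of 2.66 on the log2 scale (SE 0.20, 95% interval 2.21 to 3.11, edgeR adjusted *p* = 2.98e-06) was close to that of *Entpd1*, and again infarct 3 was the lowest infarct library. *Nt5e* (ENSMUSG00000032420) is located on chromosome 9 at 88327197 to 88372092 on the plus strand. The ratio of *Entpd1* to *Nt5e* per kilobase of exon was 7.05, 5.88, and 5.76 in infarcts and 5.31, 7.06, and 6.63 in contralateral cortices, and these ranges overlap (exact permutation test, two-sided, *p* = 0.9, adjusted *p* = 0.9). By the length of the longest transcript, the ratio ranged from 3.53 to 4.33 in infarcts, and contralateral cortices ranged from 3.26 to 4.33.

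The 4 adenosine receptor genes did not move together. *Adora1*, expressed by neurons throughout the cortex, was the only one of the 10 genes that fell. It was measured at 16.4, 21.6, and 39.2 CPM in infarcts and at 83.5, 82.2, and 108 CPM in contralateral cortices. All infarct libraries were below all contralateral libraries, with infarct 3 nearest to them. The log2 fold change was -1.82 (SE 0.31, 95% interval -2.53 to -1.12, edgeR adjusted *p* = 8.31e-04), equal to a 3.54-fold lower level. Without infarct 3 it was -2.24. *Adora1* (ENSMUSG00000042429; chromosome 1, 134199223 to 134235431, minus strand) shares 20.1% of its exon bases with *Mybph* on the other strand, which held at most 16 counts in any library. If the counting ignored strand, reads on the shared bases can be tallied as ambiguous and left out, so the level per kilobase of *Adora1* may be too low.

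*Adora2a*, known from striatal neurons and from leukocytes, where it dampens activation, rose from a low level. Its CPM values were 3.82, 6.24, and 4.64 in infarcts (48, 85, and 68 counts) and 1.36, 0.716, and 0.738 in contralateral cortices (26, 11, and 8 counts). The regions did not overlap, and the log2 fold change was 2.34 (SE 0.37, 95% interval 1.50 to 3.18, edgeR adjusted *p* = 3.86e-04). *Adora2a* (ENSMUSG00000020178) lies on chromosome 10 at 75316877 to 75334784 on the plus strand.

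*Adora2b*, the receptor that needs the highest adenosine levels, was measured at 4.46, 5.80, and 7.10 CPM in infarcts and at 3.81, 4.17, and 4.52 CPM in contralateral cortices. Infarct 1 fell within the contralateral range. Its difference did not pass the test (log2 fold change 0.48, SE 0.26, 95% interval -0.094 to 1.06, edgeR adjusted *p* = 0.126), and the interval leaves room for a change of about 2-fold upward. *Adora2b* (ENSMUSG00000018500) is found on chromosome 11 at 62248984 to 62266453 on the plus strand.

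*Adora3*, known in rodents from mast cells and microglia, had few counts in every library, with 24, 17, and 26 counts in infarcts and 14, 11, and 15 in contralateral cortices. These correspond to 1.91, 1.25, and 1.77 CPM and to 0.731, 0.716, and 1.38 CPM, and infarct 2 was below contralateral cortex 3. The log2 fold change of 0.84 did not pass the test (SE 0.42, 95% interval -0.11 to 1.79, edgeR adjusted *p* = 0.109), and at this depth a change of more than 3-fold upward is inside the interval. *Adora3* (ENSMUSG00000000562; chromosome 3, 105870858 to 105908926, plus strand) shares 20.9% of its exon bases with *Tmigd3* on the same strand. *Tmigd3* held at most 4 counts in any library. Reads on the shared bases can be tallied as ambiguous and left out whatever *Tmigd3* held, so the level per kilobase of *Adora3* may be too low.

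The make-up of each receptor family was compared per kilobase of exon, which sets genes of different lengths on 1 scale. In contralateral cortices, *Adora1* made up 84.2%, 84.1%, and 85.9% of the summed level of the 4 adenosine receptors. In infarcts its share was 40.4%, 40.3%, and 53.7%. *Adora2b* made up 33.0% ± 2.16 of the sum in infarcts and 12.2% ± 1.07 in contralateral cortices (mean ± SD, *n* = 3 each), and *Adora2a* made up 17.3% ± 5.03 and 1.69% ± 0.786. *Adora1* thus had the largest share in every library of both regions, and the share of the cAMP-raising receptors was larger in infarcts while the summed level was lower there (9.63 ± 2.82 against 18.6 ± 2.74 CPM per kilobase). The ratio of *Adora1* to *Adora2a* was 2.27, 1.83, and 4.47 in infarcts and 32.6, 60.7, and 77.5 in contralateral cortices. The ratio of *Adora2a* to *Adora2b* was 0.516, 0.648, and 0.394 in infarcts and 0.215, 0.104, and 0.0984 in contralateral cortices. Neither ratio overlapped between the regions (exact permutation tests, two-sided, *p* = 0.1 and adjusted *p* = 0.133 for each, where 0.1 is the smallest *p* possible). For *Adora1* to *Adora2a* this outcome was fixed, because *Adora1* fell and *Adora2a* rose, each without overlap. That test therefore adds nothing to the calls of these genes, and its fixed *p* also entered the adjustment.

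Among the 7 P2X channel genes, *P2rx4* made up 57.0% ± 2.94 of the summed level per kilobase in infarcts and 31.2% ± 2.16 in contralateral cortices. The share of *P2rx7* was 32.3% ± 0.745 and 31.0% ± 4.69, so its ranges overlap, whereas the sum over the family was 22.9 ± 3.13 and 4.22 ± 0.751 CPM per kilobase. Among the 9 P2Y receptor genes, *P2ry6* made up 22.5% ± 1.93 in infarcts and 1.90% ± 0.630 in contralateral cortices. The P2Y sum includes the lysophospholipid receptor gene *P2ry10* and its near copy *P2ry10b*. Their shares were 11.6% ± 4.21 and 10.9% ± 2.63 in infarcts and 0.128% ± 0.221 and 1.55% ± 0.253 in contralateral cortices, which lowers the other P2Y shares mainly in infarcts. The largest P2Y share in contralateral cortices was that of *P2ry12*, the ADP receptor of homeostatic microglia, at 74.6% ± 1.40, against 29.6% ± 7.45 in infarcts.

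**Figure D2:**
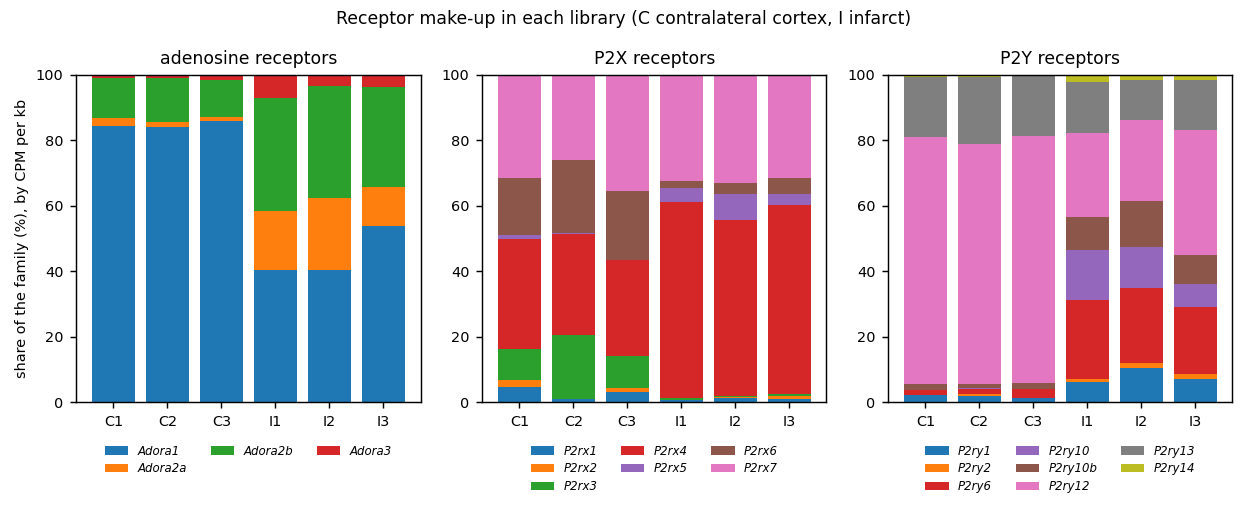
Share (%) of each gene in the summed CPM per kilobase of exon of its receptor family, with 1 stacked bar per library (C1 to C3 contralateral cortices, I1 to I3 infarcts). *Adora1* fills over 84% of the adenosine receptor bars in contralateral cortices and 40.3% to 53.7% in infarcts, and *P2ry6* widens from 1.90% to 22.5% of the P2Y bars.

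Ordered by level per kilobase in infarcts, the 10 genes ran from *Entpd1* (24.1 ± 5.97 CPM per kilobase) through *P2ry6* (15.0 ± 2.92), *P2rx4* (13.1 ± 2.33), *P2rx7* (7.40 ± 1.06), *Adora1* (4.45 ± 2.06), *Nt5e* (3.83 ± 0.640), *Adora2b* (3.14 ± 0.715), *Adora2a* (1.60 ± 0.402), and *P2ry14* (1.26 ± 0.294) to *Adora3* (0.441 ± 0.0939). Neighbors in this order had libraries that did not overlap only at the steps below *P2rx4*, below *Adora2b*, and below *P2ry14*. In contralateral cortices, *Adora1* was first (15.8 ± 2.53), followed by *Entpd1* (3.78 ± 0.205), *Adora2b* (2.26 ± 0.192), *P2rx4* (1.33 ± 0.310), and *P2rx7* (1.29 ± 0.177). The other 5 genes were at or below 0.604 CPM per kilobase, and steps without overlap came below *Adora1*, *Entpd1*, *Adora2b*, and *P2rx7*. The order depends on the length used. With the longest transcript in place of all exons, *P2rx4* (23.6) stood above *P2ry6* (22.2) and *Nt5e* (8.25) above *Adora1* (5.18) in infarcts. In contralateral cortices, *P2rx4* (2.39) then stood above *Adora2b* (2.26) and *Adora3* (0.398) above *Adora2a* (0.361).

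Promoter sequences are shown for the 2 neighboring channel genes, for *Entpd1*, and for *Adora1*, because the first 3 rose and *Adora1* fell. Each is the 250 bases before a start of the gene in RefSeq (GRCm38.p6), 5′ to 3′ on the strand of the gene. They lie at chr5:122643677-122643926 (plus strand) for *P2rx7*, chr5:122707294-122707543 (plus strand) for *P2rx4*, chr19:40612116-40612365 (plus strand) for *Entpd1*, and chr1:134235458-134235707 (minus strand) for *Adora1*. Capitals mark matches, on either strand, to TGANTCA (the AP-1 element) or ACGTG (the core of the hypoxia response element), and no other searched motif was found in the windows shown.
P2rx7: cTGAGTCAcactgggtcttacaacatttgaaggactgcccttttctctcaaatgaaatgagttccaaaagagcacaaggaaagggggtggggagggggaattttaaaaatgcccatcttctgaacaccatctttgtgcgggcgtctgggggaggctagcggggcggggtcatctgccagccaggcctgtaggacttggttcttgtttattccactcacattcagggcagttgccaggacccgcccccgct
P2rx4: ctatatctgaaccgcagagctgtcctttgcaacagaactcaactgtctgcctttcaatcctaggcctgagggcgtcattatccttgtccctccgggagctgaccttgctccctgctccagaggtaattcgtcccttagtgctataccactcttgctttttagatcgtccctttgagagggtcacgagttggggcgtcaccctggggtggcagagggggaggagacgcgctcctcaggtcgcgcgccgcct
Entpd1: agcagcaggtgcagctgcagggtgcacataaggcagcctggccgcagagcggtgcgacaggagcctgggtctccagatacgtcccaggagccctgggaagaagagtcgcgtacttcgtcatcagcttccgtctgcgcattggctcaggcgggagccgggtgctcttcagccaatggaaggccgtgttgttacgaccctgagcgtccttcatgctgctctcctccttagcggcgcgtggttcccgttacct
Adora1: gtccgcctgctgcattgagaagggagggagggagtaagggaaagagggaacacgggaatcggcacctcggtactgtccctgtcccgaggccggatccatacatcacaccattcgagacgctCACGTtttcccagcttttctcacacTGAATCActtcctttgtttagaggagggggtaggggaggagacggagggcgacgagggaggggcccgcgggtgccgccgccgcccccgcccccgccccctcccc
RefSeq windows were found for 8 of the 10 genes, not for *P2ry6* or *Adora2a*. TGANTCA was present in 6.75% and ACGTG in 16.6% of all 32841 promoter windows, and *Adora1* held 1 match to each, although ACGTG is short and common. GAGGAA (23.3% of windows), part of sites for the myeloid factor PU.1, had no match in the windows of *P2rx4*, *P2rx7*, *Nt5e*, *Adora1*, or *Adora2b*, and had 2 matches in the second window of *Entpd1* and at least 1 in each window of *P2ry14* and *Adora3*. TGACGTCA (1.55%), the cAMP response element, had no match in any window of the 8 genes. TGANTCA also matched 2 windows of *P2ry14* and the window of *Adora3*, and TATAAA (12.4% of windows) matched 1 window of *P2ry14* alone. The matches are letters in these windows and do not show binding.

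The other genes of the pathway were described from 6 lists that cover P2X channels, P2Y receptors, adenosine receptors, enzymes that break down extracellular nucleotides, nucleotide release, and adenosine uptake and conversion. Beside the 10 genes, these lists name 42 others, of which 34 were tested. Of those 34, 21 were higher in infarcts, 4 were lower, and 9 were not called, with a median log2 fold change of 1.77. Over all genes tested, 25.7% were higher, 20.9% lower, and 46.6% called in either direction, with a median of 0.030. The counts for each list below stand against these same shares.

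**Figure D3:**
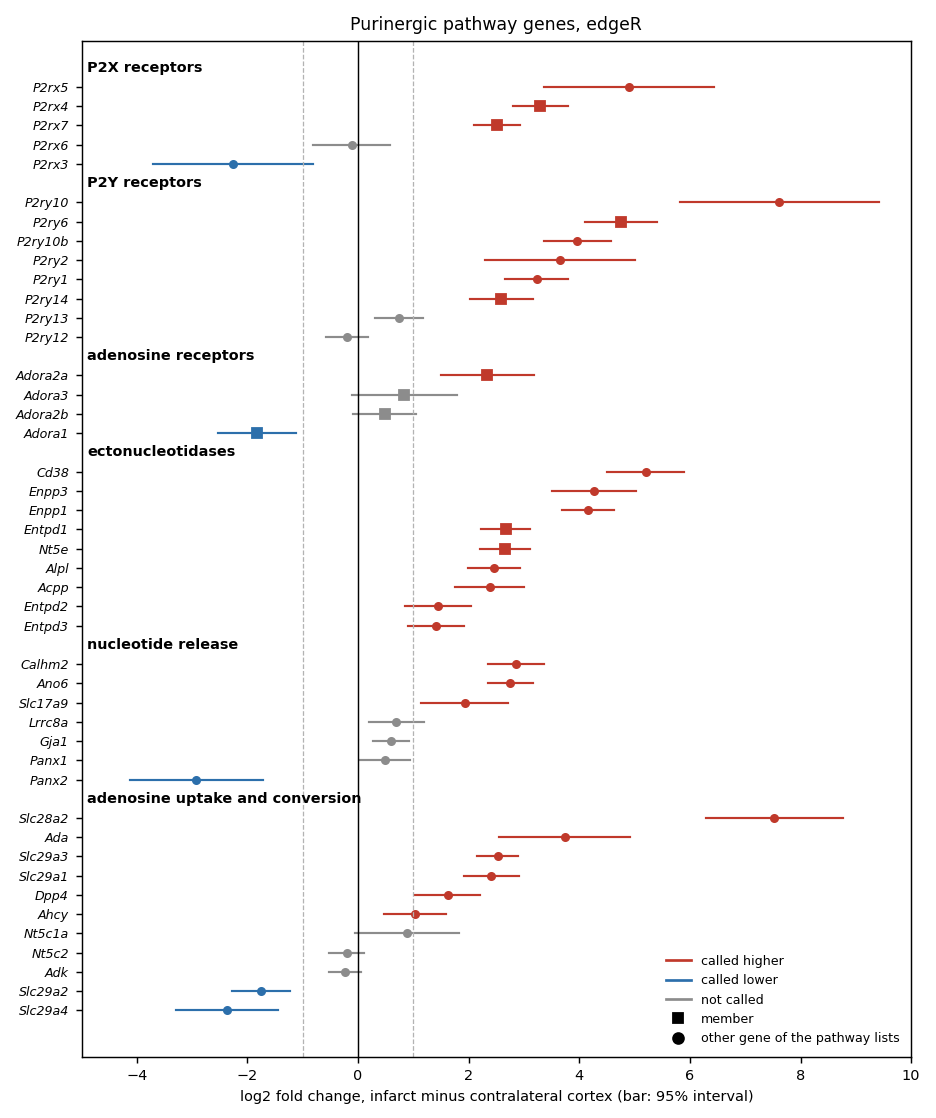
Log2 fold change (infarct minus contralateral cortex, edgeR) of the tested genes of the 6 lists, with bars for 95% intervals. Squares are the 10 genes, circles the other genes, and color gives the call. All 9 tested nucleotide-degrading enzymes lie to the right of 0, whereas adenosine receptors and uptake genes lie on both sides.

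On the release side, 3 of 7 tested genes were higher and 1 was lower. *Calhm2*, a channel subunit linked to ATP release, rose by 2.86 on the log2 scale (edgeR adjusted *p* = 4.21e-06), *Ano6*, a lipid scramblase, rose by 2.76 (1.14e-06), and *Slc17a9*, the vesicular nucleotide transporter, rose by 1.93 (8.49e-04). *Panx2*, a neuronal pannexin, fell by 2.93 (adjusted *p* = 0.00166) with 35, 27, and 128 counts in infarcts and 686, 449, and 421 in contralateral cortices, and the change was -3.84 without infarct 3. *Panx1*, the pannexin best known for releasing ATP, was measured at 23.9 ± 6.12 and 17.0 ± 0.834 CPM and did not pass the test (log2 fold change 0.49, adjusted *p* = 0.0558).

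Of the 5 P2X genes tested, 3 were higher and 1 was lower. *P2rx5* had 35, 56, and 24 counts in infarcts and 3, 1, and 0 in contralateral cortices, which gives an at least 13.6-fold higher level when each contralateral library is set to 3 counts. *P2rx3*, the channel of sensory neurons, was called lower on few counts (7, 1, and 5 against 24, 38, and 10; log2 fold change -2.26, edgeR adjusted *p* = 0.0112), and the call was lost without contralateral cortex 2 (-1.76, adjusted *p* = 0.064). *P2rx1* and *P2rx2* did not pass the filter on low counts.

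P2Y receptors were higher for 6 of 8 tested genes and lower for none. *P2ry10*, a lysophospholipid receptor of lymphoid and myeloid cells, had 427, 324, and 184 counts in infarcts and 0, 5, and 0 in contralateral cortices (log2 fold change 7.62, edgeR adjusted *p* = 7.25e-05). Without contralateral cortex 2 the fitted change was 11.4, but the remaining contralateral libraries held 0 counts, so this value has no measured size. The near copy of *P2ry10*, *P2ry10b*, rose by 3.97 (1.57e-06), and how reads were divided between the pair is uncertain. The ATP and UTP receptor *P2ry2* rose by 3.65 (4.97e-04), or by 4.62 without contralateral cortex 2, and the ADP receptor *P2ry1* rose by 3.23 (3.88e-06).

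The 2 tested P2Y genes that were not called are known from resting microglia. *P2ry12* was measured at 49.3 ± 9.09 CPM in infarcts and 56.6 ± 3.96 in contralateral cortices (log2 fold change -0.20, 95% interval -0.58 to 0.18, edgeR adjusted *p* = 0.32), and its sign turned with scaling by library totals (0.0054). *P2ry13* was measured at 23.9 ± 5.18 and 14.3 ± 0.673 CPM, and its log2 fold change of 0.74 had an adjusted *p* of 0.00711 but did not reach 2-fold. Both lie near *P2ry14* on the minus strand of chromosome 3, *P2ry13* at 54273 bases from *P2ry14* and *P2ry12* at 5389 bases from *P2ry13*, and their level per kilobase in infarcts (19.4 ± 3.57 for *P2ry12* and 9.45 ± 2.05 for *P2ry13*) was above that of *P2ry14*.

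All 9 tested enzymes that act on extracellular nucleotides were higher in infarcts, *Entpd1* and *Nt5e* included, with a median log2 fold change of 2.66. *Cd38*, which consumes NAD, showed the largest change (5.20, edgeR adjusted *p* = 1.23e-06) and the highest level per kilobase in infarcts (48.8 ± 19.3), above that of *Entpd1*. *Enpp1*, which turns ATP into AMP and pyrophosphate and thereby feeds CD73 without CD39, rose by 4.16 (3.45e-07) to 26.7 ± 6.09 CPM per kilobase. Its relative *Enpp3* rose by 4.26 (4.05e-06), and the alkaline phosphatase gene *Alpl* rose by 2.46 (6.71e-06). The smallest changes were those of *Entpd2* (1.44) and *Entpd3* (1.41). *Entpd2* shares 28.8% of its exon bases with *Npdc1* on the same strand, and the effect of this overlap on its change was not tested.

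Among genes that take up or convert adenosine, 6 of 11 tested were higher and 2 were lower. *Slc28a2*, a concentrative nucleoside transporter, had 168, 107, and 118 counts in infarcts and 1, 0, and 1 in contralateral cortices, an at least 46.6-fold higher level with each contralateral library set to 3 counts. *Ada*, adenosine deaminase, rose by 3.73 on the log2 scale (edgeR adjusted *p* = 1.69e-04) from 4, 1, and 4 counts, and the equilibrative transporters *Slc29a3* and *Slc29a1* rose by 2.52 (1.17e-06) and 2.40 (1.04e-05). The other 2 called transporters fell, *Slc29a4* by 2.37 (6.60e-04) and *Slc29a2* by 1.75 (1.18e-04). *Adk*, the adenosine kinase that clears adenosine in astrocytes, was 104 ± 8.64 CPM in infarcts and 123 ± 4.76 in contralateral cortices, with no overlap, and did not pass the test (-0.24, adjusted *p* = 0.142).

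Marker genes of brain and blood cell types were summed in each library, because the 10 genes are expressed by different cells. The summed macrophage markers (led by *Lyz2*) were 8948, 7654, and 5302 CPM in infarcts and 122, 97.8, and 104 in contralateral cortices, and 7 of 8 genes were called higher. Homeostatic microglia markers (led by *Csf1r*) stood at 1328 to 1524 CPM against 351 to 437, with 6 of 9 higher. Neuronal markers (led by *Syt1*) were 922, 1289, and 2650.0 CPM in infarcts and 12641 to 13362 in contralateral cortices, with 12 of 12 lower. Infarct 3 thus had the lowest macrophage sum and the lowest *Entpd1* of the infarct libraries, together with the highest neuronal sum and the highest *Adora1*. The part of these cell types in the changes of the 10 genes was not tested.

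Lists of other cells moved as well. Fibroblast and leptomeningeal markers (6 of 6 higher, led by *Col3a1*) rose from 80.5 to 118 CPM in contralateral cortices to 6762 to 8474 CPM in infarcts. Dendritic cell markers (4 of 6 higher, led by *Itgax*) rose in sum from 25.3 to 26.8 CPM to 303 to 477 CPM. Most of this infarct sum was *Itgax* (274 to 432 CPM), and the other called genes stayed at or below 13.6 CPM. Nearly all of the contralateral sum was *Zbtb46* (17.8 to 18.8 CPM) and *Flt3* (4.89 to 7.36 CPM). Neither was called (log2 fold change -0.39 and -0.54). The size of the rise in the dendritic sum is therefore mainly that of *Itgax*. T cell markers (led by *Cd4*, all 6 tested higher) were 22.5 to 88.9 CPM in infarcts and at most 0.575 CPM in contralateral cortices, where *Cd3d*, *Cd2*, and *Cd8a* had 0 counts. B cell markers (led by *Ms4a1*) were 117 to 295 and at most 0.646 CPM, and plasma cell markers (led by *Jchain*, 4 of 4 higher) were 420.5 to 2396 and 95.6 to 114 CPM. In contralateral cortices nearly all of the plasma cell sum was *Xbp1* (92.7 to 108 CPM), and *Jchain* was at 1.15 to 3.41 CPM. Astrocyte markers (led by *Slc1a2*) were lower in sum (4848 to 7457 against 13352 to 14252 CPM), with 2 of 8 genes higher and 1 lower. The lower gene was *Slc1a2* itself (2376 to 3922 against 11792 to 12994 CPM), which made up most of the contralateral sum. *Gfap* and *Aqp4* rose by 4.81 and 1.68 on the log2 scale (edgeR adjusted *p* = 4.41e-07 and 2.06e-05), and 5 genes were not called. The lower sum therefore does not hold for the list as a whole. Oligodendrocyte markers were higher in sum (4134 to 6643 against 2062 to 2488 CPM, 3 of 6 genes higher), and endothelial markers (led by *Slco1a4*, 2 of 6 genes higher) stood at 391 to 508 against 311 to 355 CPM. Neutrophil markers (led by *S100a8*) were 7.92 to 12.1 CPM in infarcts and 0.104 to 0.554 in contralateral cortices, and the 2 genes tested were both called higher. Mast cell markers (led by *Cpa3*, the only 1 tested, called higher) were 2.07 to 5.80 CPM in infarcts and 0.0651 to 0.261 in contralateral cortices, and their part in the *Adora3* values was not tested. *Ly6g*, *Retnlg*, and *Mcpt4* had 0 counts in contralateral cortices. Choroid plexus markers (led by *Kl*) reached 15.0 to 23.7 CPM in infarcts and 6.32 to 7.36 in contralateral cortices. Of the 3 genes tested, 2 were called higher and *Kl* was not called, and *Ttr* had 3 counts or fewer in every library. Striatal markers, given because the striatum is rich in *Adora2a*, were lower in sum in infarcts (65.5, 250.03, and 178 CPM in infarcts 1, 2, and 3) than in contralateral cortices (319 to 344 CPM), and the striatal genes *Drd1* and *Drd2* were not called. Within infarcts, the striatal sum and *Adora2a* were both highest in infarct 2 and lowest in infarct 1, and the part of striatal tissue in the *Adora2a* values was not tested.

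**Figure D4:**
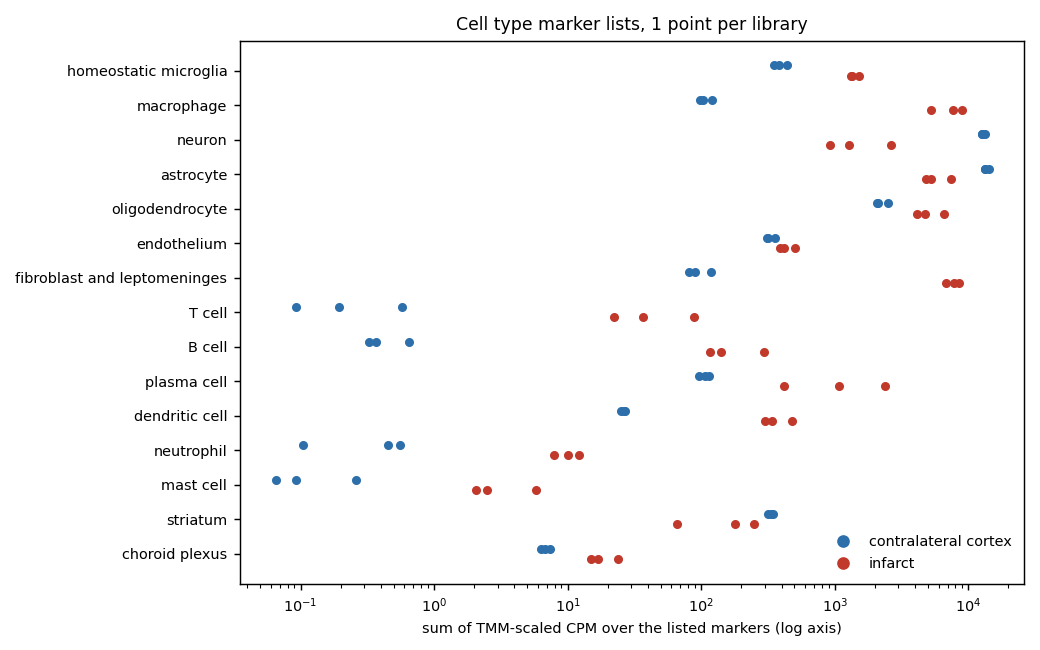
Summed TMM-scaled CPM (log axis) of the 15 cell type marker lists, with 1 point per library (3 infarcts, 3 contralateral cortices). Infarct libraries lie far to the right for macrophage, fibroblast, and lymphoid lists and to the left for neurons (922 to 2650.0 against 12641 to 13362 CPM).

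Counts on genes ranged from 11943570 to 19933962 per library, and these were 65.7% to 73.4% of everything the tables tally. Leaving out any of the 6 libraries kept the call of each of the 10 genes, and DESeq2 gave the same 7 higher and 1 lower genes. The 7 genes include *Adora2a*, which is not tested when every library must hold at least 10 counts, and then 6 are higher.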

How the data were processed

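The deposited tables hold raw counts per Ensembl gene. Per the paper's methods and the submitters' processing notes, the authors made stranded mRNA libraries (TruSeq), sequenced them as paired reads, demultiplexed with bcl2fastq 2.19, trimmed with Trimmomatic 0.32, aligned to GRCm38 with STAR 2.5.2b and counted with htseq-count, without normalization. The version, annotation and strand setting of the counting are not given in the sources used here. Entries that name no gene were left out.

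Counts were analyzed with edgeR 4.0.16 (R 4.3.3) after filterByExpr and TMM scaling, in a quasi-likelihood model with region as its only term, and *p* values were adjusted by Benjamini-Hochberg over all 15554 genes. The authors' thresholds were used, an adjusted *p* under 0.05 and a log2 fold change beyond 1. Positions and exon lengths came from GENCODE M21. In simulated data with 15554 genes, 199 of 200 genes changed 4-fold were recovered, and 8 unchanged genes were called. The simulation gave every gene the same spread and changed far fewer genes than were called in the real data. Its changed genes were drawn above a minimum level, so recovery was not measured for genes as low in contralateral cortices as *Adora2a*, *Adora3* or *P2ry6*. Intervals of fold changes are at 95%. Bounds on folds set each low library to 3 counts and cover counting error only. Alternatives were DESeq2 1.42.0, limma voom 3.58.1, other scalings, filters and thresholds, the replicate number as a block, and each library left out. Tables and plots were made with Python 3.11.15, pandas 2.3.3, SciPy 1.17.1 and matplotlib 3.10.9.

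The 10 genes, the pathway lists and the marker lists were chosen with earlier results of these data known. All 10 genes are named, and from each list up to 4 called genes with the largest changes in each direction that average at least 10 counts where they are higher, genes with a higher level per length than the listed genes they stand with, and of each marker list the most abundant gene and those at 0 counts, except for some marker genes that are not reported here. *Mybph*, *Tmigd3*, *Npdc1* and *Med12l* are named for their position. *Panx1*, *Adk*, *Alpl*, *Ahcy*, *P2ry1*, *P2ry13*, *P2rx6*, *P2rx1*, *P2rx2*, *Entpd2*, *Entpd3*, *Drd1* and *Drd2* fall outside this rule and were added after their values were seen. The same holds for the marker genes *Gfap*, *Aqp4*, *Flt3*, *Zbtb46* and *Xbp1*.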

Additional observations from a re-analysis of the deposited data

How the results depend on the processing

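For the 10 genes, all 169 fold changes under the alternatives kept their direction and their call (adjusted *p* and fold change together), and the count of higher genes was 7 in every setting but a minimum of 10 counts in every library (6), with 1 lower gene throughout. Leaving out 1 library at a time gave 7 higher and 1 lower gene each time. *Adora3* exceeded a log2 fold change of 1 without infarct 2 (1.02, adjusted *p* = 0.0945) and without contralateral cortex 3 (1.17, 0.0632), and *Adora2b* had an adjusted *p* of 0.0461 without infarct 1, at 0.66. Of 569 values for other pathway genes, 552 kept direction and call. *P2rx6* turned positive with library totals (0.093), without infarct 1 (0.063) and without contralateral cortex 2 (0.021, with a range of -0.34 to 0.063 over the libraries left out), and *P2ry12* with library totals (0.0054). *Ahcy*, at 1.02, fell below the threshold under limma voom (0.98), with the replicate block in edgeR or DESeq2 (0.98 in both), without infarct 1 (0.74) and without contralateral cortex 1 (0.93), and, like *Entpd2* (adjusted *p* = 0.0507), failed glmTreat (adjusted *p* = 0.478). Of 204 list counts, 22 differed, 17 of them by 1 or 2 genes and within 1.5 times the reported count. Of the other 5, with at least 10 counts in every library lower P2X genes were 0, higher adenosine receptors 0 and lower uptake genes 1, lower P2X genes were 0 without contralateral cortex 2, and release genes rose to 5 higher without the fold change threshold. These settings change which genes or libraries are tested or the threshold itself, and the cause of the other changes was not tested. Scaling by library totals moved the median log2 fold change of all tested genes from 0.030 to 0.234 and the calls from 3999 higher and 3256 lower to 4528 and 2766. The counts over all genes were 2789 and 2504 with at least 10 counts in every library, and 5324 and 4787 without the fold change threshold.

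Whether replicate numbers pair the samples was not settled. Deviations of same-numbered libraries from their region means correlated at -0.209, 0.116 and 0.0387 over 15554 genes. Libraries with different numbers correlated at -0.287 to 0.205, so no pairing stood out. Deviations of an infarct and a cortex need not go together within a mouse, so these values cannot decide it. With the replicate block, 7 of the 10 genes were higher and 1 lower in edgeR and in DESeq2, and over all genes edgeR called 3945 higher and 3222 lower. With the longest transcript as the gene length, shares in infarcts and contralateral cortices were 66.9% and 39.4% for *P2rx4*, 28.4% and 2.60% for *P2ry6*, and 29.1% and 10.6% for *Adora2b*. Depth limits the 2 genes with the fewest counts, *Adora2a* (8 to 85 per library) and *Adora3* (11 to 26).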
